A study of Mus musculus with 12 samples.

Results

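The ATP-binding cassette (ABC) transporter genes of mouse pre-B cell lines with and without BCR-ABL1 are described here. Members were taken by an annotation rule that uses no measured value, as protein-coding genes of GENCODE M21 with a symbol of Abc, a subfamily letter from a to g and a number, outside chromosomes X and Y. By this rule 48 of the 51826 genes in the count table were members: 16 of subfamily A, 9 of B, 10 of C, 3 of D, 1 of E, 3 of F and 6 of G. Of the 48 members, 25 had 10 or more counts in at least 3 of 12 lines, and 22 of these 25 also passed the expression filter of the test. Abca5, Abca8b and Abcb9 passed the first limit but not the filter.

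Bone marrow cells of 2 C57BL/6 mice were grown with interleukin 7 (IL7) for 7 days and then transduced with a retroviral vector, giving 3 empty vector (EV) lines and 3 BCR-ABL1 lines per mouse. Both kinds of line stayed in IL7 for another 48 h. Thereafter IL7 was withdrawn for 1 week from all 6 BCR-ABL1 lines, whereas the 6 EV lines remained in IL7 and were sorted by the vector's GFP, so the kinase, the loss of IL7 and the sort cannot be told apart. Lines are named by the digit and letter of their labels, 2C being the third of mouse 2. The labels name no mouse, and the digit was read as the mouse. The authors describe triplicates from 3 independent experiments, and which lines share an experiment is not stated. BCR-ABL1 is the fusion kinase of Philadelphia chromosome-positive leukemia, and the human fusion transcript is not part of the mouse gene table.

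ABC proteins couple the binding and hydrolysis of ATP to movement. Most sit in a membrane and carry drugs, lipids, peptides or metabolites across it. Members of the B, C and G subfamilies, among them P-glycoprotein (Abcb1a and Abcb1b in the mouse), MRP1 (Abcc1) and BCRP (Abcg2), are known in leukemia cells as efflux pumps for drugs that include ABL kinase inhibitors. The E and F subfamilies have no membrane part and act on ribosomes instead.

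The duplicated pump genes are shown first, because counts can be given to a member only where its sequence differs from that of its relatives. The coding sequences of Abcb1a and Abcb1b were identical at 88.0% of 3822 aligned bases, with a longest identical run of 338 bases. Of all windows of 100 bases along the Abcb1b transcript, 8.72% also occurred in another gene, in most cases Abcb1a. Abcg2 and Abcg3 were identical at 68.5% of 1944 aligned bases, the longest identical run was 21 bases, and neither shared a window of 100 bases with any gene. The stretches of 60 coding bases with the most mismatches of each pair are printed below from the GENCODE M21 transcripts, counted from the first base of the start codon, with mismatches in capitals. Abcb1a and Abcb1b differ at 25 of these bases.
Abcb1a, coding bases 1913 to 1972: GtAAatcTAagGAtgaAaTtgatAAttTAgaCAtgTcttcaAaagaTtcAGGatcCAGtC
Abcb1b, coding bases 1922 to 1981: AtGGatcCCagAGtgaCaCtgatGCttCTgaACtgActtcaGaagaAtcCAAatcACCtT
Abcg2 and Abcg3 differ at 33 of 60 bases.
Abcg2, coding bases 1216 to 1275: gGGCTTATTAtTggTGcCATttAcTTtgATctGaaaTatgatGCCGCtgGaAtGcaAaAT
Abcg3, coding bases 1192 to 1251: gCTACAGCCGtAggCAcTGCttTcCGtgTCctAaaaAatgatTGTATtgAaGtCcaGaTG
One further member has an uncertain count. Abcb6 shares 2932 exon bases on its own strand with Gm29253, and 86.6% of its windows occurred in that gene. Abca3, Abcb10, Abca8b, Abcb9, Abcb1b and Abcc10 overlap exons of a gene on the opposite strand by 914, 444, 241, 162, 143 and 51 bases. The libraries were stranded, but the strand setting of the counting is not given in the sources used here, so that part of their reads may belong to the other gene.

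Libraries held between 34791011 counts (EV line 2A) and 66011225 counts, with medians of 53482987 for EV and 51773506 for BCR-ABL1 lines. The 3 EV lines of mouse 2 differed from each other more than the lines of any other mouse and condition, with a biological coefficient of variation of 0.386 against 0.0844 to 0.103. EV line 2A had the lowest depth but counts in 36123 genes, whereas the other lines had counts in 20235 to 28517. The B lineage markers Pax5 and Ebf1 were present in every line, at 309.7 to 569 CPM for Pax5 and 317 to 544 CPM for Ebf1, where CPM are counts scaled to equal library size. Of the 10 genes in the B lineage list 1 was called lower and 0 higher, the IL7 receptor gene Il7r, whose EV lines spanned 235 to 401 CPM and BCR-ABL1 lines 145 to 189 CPM (-1.06 on the log2 scale, FDR 0.00328, by the test described below, which called 12.5% of all genes). The surrogate light chain genes of pre-B cells, Vpreb1 and Igll1, were low in the EV lines of mouse 1, at 186 to 230 and 181 to 219 CPM, against 451 to 790 and 362 to 813 CPM in the EV lines of mouse 2. BCR-ABL1 lines held 398 to 649 and 349 to 482 CPM, and the effect differed between the mice for both genes (FDR 0.000412 and 0.00577). The summed levels were at most 1.23 CPM for 9 myeloid, 3.68 for 6 T and NK, 0.521 for 5 mast and basophil, 1.04 for 5 erythroid and 1.13 CPM for 5 stromal markers. Of 5 stem and progenitor markers only Ly6a passed the filter, and their sum was at most 1.44 CPM in EV lines, whereas BCR-ABL1 lines held 12.1 to 18.7 CPM (mouse 1) and 3.98 to 5.32 CPM (mouse 2). The part of these libraries and markers in the results below was not tested. In RNA from whole cultures, fewer expressing cells and less RNA per cell cannot be told apart.

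Of the 23 members under the limit, 22 had their highest level in EV line 2A, and their summed level was 7.82 CPM there against 0.243 to 2.07 CPM in the other 11 lines. The same line was highest for 66.9% of the 25712 untested genes with any count, so the members shared this with weakly detected genes in general. The highest count of these members in any line was 22 (Abca13 and Abca4), followed by Abcc12 with 17, Abca12 with 15, Abca1, Abca14 and Abca8a with 14, and Abca17, Abcc2, Abcc3, Abcc8 and Abcc9 with 12. Abca9 had at most 10, Abca15 and Abcb1a 9, Abca16, Abca6 and Abcc6 8, Abcb11 and Abcb5 7, Abcg5 and Abcg8 6, and Abcd2 4 counts. Expression of liver and intestine members such as the bile salt exporter Abcb11 and the sterol exporters Abcg5 and Abcg8 was thus near the limit of detection at this depth. Abcc8, the sulfonylurea receptor of the beta cell, is singled out after its values were seen. It had 6, 4, 12, 11, 7 and 6 counts in EV lines 1A to 2C, and 1 count in BCR-ABL1 line 1A and 0 in the other BCR-ABL1 lines. It was therefore detected in every EV line and in 1 of 6 BCR-ABL1 lines, but with too few counts to pass the filter. In a fit without filter, where 5.1% of all genes were called, it was called lower (FDR 0.00193). A count of 0 allows up to 3 counts in a line.

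Levels of different genes were compared per length, as CPM per kb of annotated exons. These are the joined exons of all transcripts of a gene, often longer than the transcript used for the windows above. They held 6004 against 3793 bases for Abce1, 15092 against 6792 for Abcc1 and 2569 in both cases for Abcf2. The order of members close in level therefore depends on the length used. The soluble members led the order by CPM per kb of annotated exons. In EV lines the median level per length was 44.3 CPM per kb for Abcf2, 38.6 for Abcf1, 36.7 for Abce1 and 17.8 for Abcf3. Among membrane transporters the highest medians in EV lines were those of Abca7 with 16.8, Abcb8 with 9.38, Abca2 with 7.89 and Abcd3 with 5.91 CPM per kb. The drug pumps lay lower. Their medians in EV lines were 3.80 CPM per kb for Abcc5, 3.31 for Abcc4, 1.70 for Abcb1b, 1.16 for Abcc10, 1.07 for Abcg2 and 0.220 for Abcc1. The remaining reported members had EV medians of 2.93 (Abca3), 2.05 (Abcg1), 1.53 (Abcg3), 1.42 (Abcd4), 0.723 (Abcb10), 0.412 (Abcb6), 0.0852 (Abcg4), 0.0486 (Abcb9), 0.0101 (Abcb4), 0.00248 (Abca8b) and 0.00149 CPM per kb (Abca5). The EV lines of the neighbours Abcf2, Abcf1 and Abce1 overlapped in the plot of levels per length, and those of Abcf3 lay below all EV lines of these 3.

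**Figure D1:**
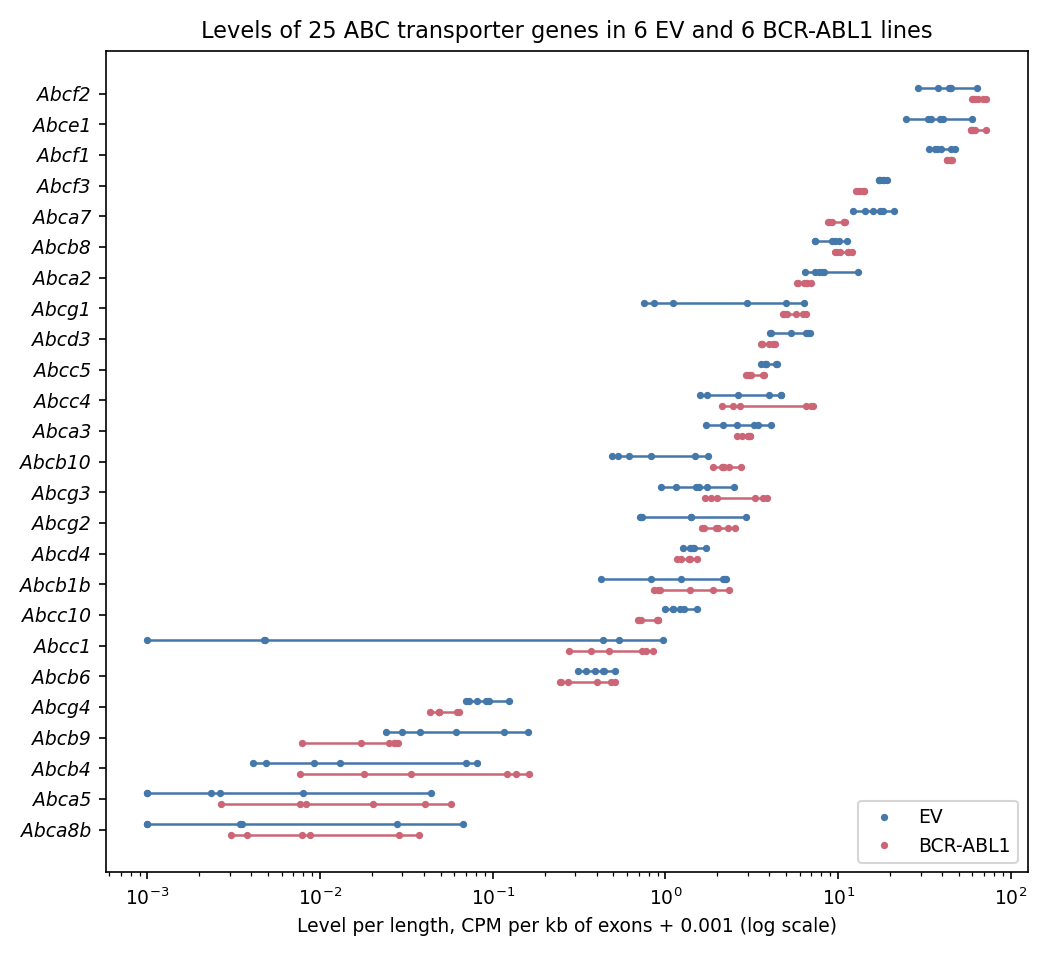
Level per length (CPM per kb of exons plus 0.001, log scale) of the 25 reported ABC transporter genes, with 1 point for each of 6 EV lines (blue) and 6 BCR-ABL1 lines (red) and a bar from the lowest to the highest. The soluble genes Abcf2, Abce1 and Abcf1 stand at the top, Abcg1, Abcb10 and Abcc1 spread widely over the EV lines, and the BCR-ABL1 lines of Abcf3 and Abca7 lie below all EV lines.

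The first comparison asks which members changed with BCR-ABL1 over all 12 lines. None of the 22 tested members was called past 1.5-fold by edgeR's glmTreat on the quasi-likelihood fit at an FDR (Benjamini-Hochberg adjusted p) under 0.05, where 12.5% of all 15038 tested genes were called. At an unadjusted p under 0.05 the same test held 2 members, Abcb10 and Abca7, and 3162 of all tested genes. The likelihood ratio fit and DESeq2 called 0 members as well, beside 13.5% and 9.62% of all genes. Against no change in place of 1.5-fold, 4 members were higher (Abcb10, Abce1, Abcf2 and Abcg3) and 7 were lower (Abca2, Abca7, Abcc5, Abcc10, Abcd3, Abcf3 and Abcg4). This was 11 of 22 beside 48.5% of all tested genes (22.5% higher and 25.9% lower), a share near the background. The median log2 fold change of the 22 members was 0.09, against -0.02 for all tested genes, and the median of its size was 0.54 against 0.40. The estimated fold was 1.5 or more for 10 members and 2 or more for Abcb4 and Abcb10, in either direction. All 6 BCR-ABL1 lines lay beyond all 6 EV lines for 5 of 22 members, above them for Abcb10 and below them for Abca7, Abcc10, Abcf3 and Abcg4, where 25.6% of all tested genes did so (12.1% above and 13.5% below).

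**Figure D2:**
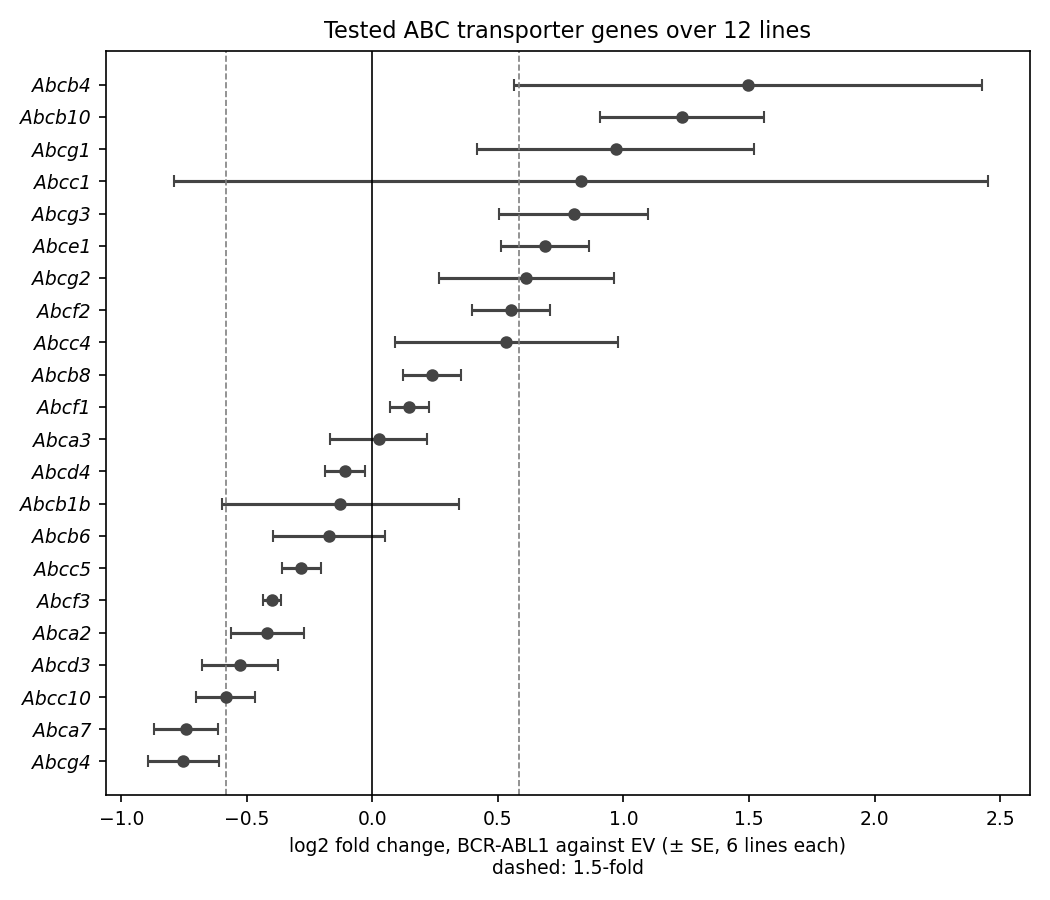
log2 fold change of BCR-ABL1 against EV lines for the 22 tested ABC transporter genes, with bars of 1 SE (log2 CPM, 6 lines per condition) and dashed lines at 1.5-fold. Estimates run from -0.75 for Abcg4 to 1.5 for Abcb4, and the widest bar, of Abcc1, crosses 0.

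Soluble members of translation showed unlike directions. Abce1 (chr8:79683462-79711740, minus strand, GRCm38) encodes the factor that splits ribosomes after termination. Its level was 206.3, 243, 234, 199, 148 and 359 CPM in EV lines 1A to 2C and 375, 360.4, 362, 429.6, 354 and 355 CPM in BCR-ABL1 lines. EV line 2C alone lay within the BCR-ABL1 lines, and the other 5 EV lines were below all of them. The log2 fold change was 0.69 ± 0.18 (SE) with an FDR of 0.424, and without EV line 2C it was 0.86 with an FDR of 0.0284, so that this line decided the call, in a fit that called 18.2% of all genes. Over all alternatives its FDR ran from 0.00551 to 1. Abcf2 had the same arrangement of lines, with EV lines at 75.0 to 163 CPM, BCR-ABL1 lines at 154 to 184 CPM and EV line 2C highest among EV lines at 163 CPM. Its log2 fold change was 0.55 ± 0.16 (FDR 0.867). Abcf1, which takes part in translation initiation, had a log2 fold change of 0.15 ± 0.08 (FDR 1). Abcf3 was lower in BCR-ABL1 lines without overlap, at 45.4 to 50.6 CPM against 61.0 to 68.0 CPM. Its change of -0.40 ± 0.04 had the smallest SE of all tested members and was near 1.3-fold in each mouse (-0.39 in both), below the 1.5-fold tested for (FDR 1) and past no change (FDR 8.58e-05).

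**Figure D3:**
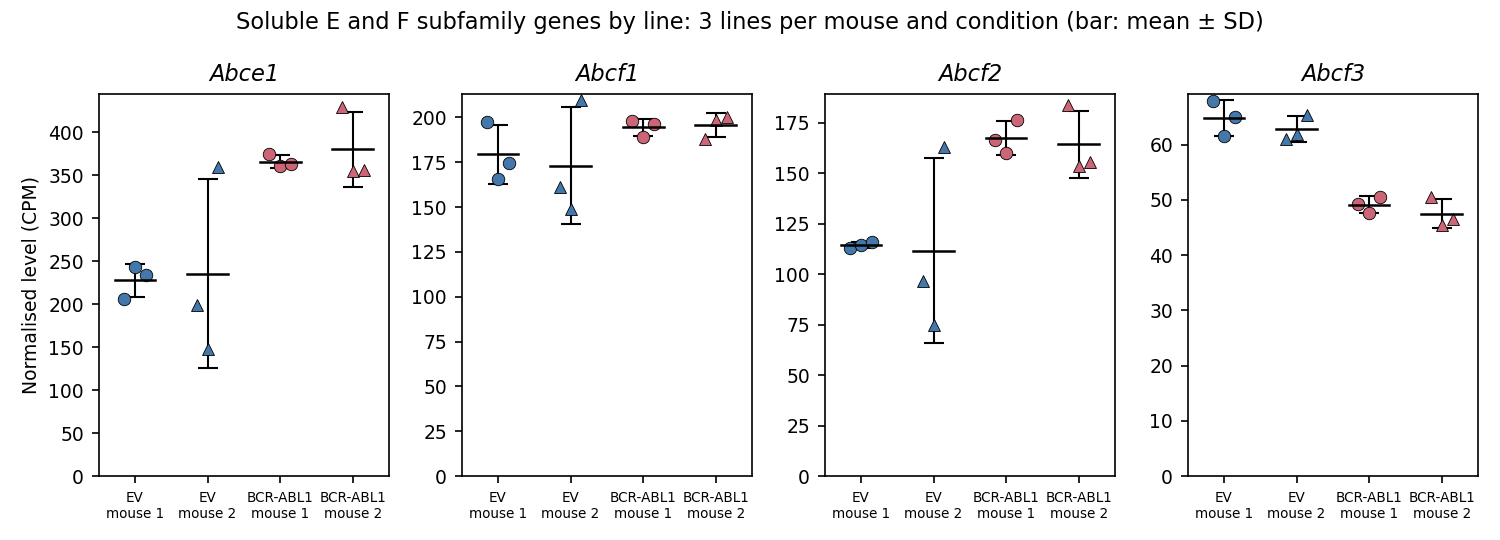
Normalised level (CPM) of the soluble members Abce1, Abcf1, Abcf2 and Abcf3 in each line, with 3 lines per mouse and condition and bars of mean ± SD. EV line 2C is the high triangle of EV mouse 2 for Abce1 (359 CPM), Abcf1 and Abcf2 (163 CPM), and the groups of Abcf3 do not overlap.

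The summed level of all members ranged over 856 to 1226 CPM (EV) and 1151 to 1228 CPM (BCR-ABL1). The E and F subfamilies made up 50.7% to 65.1% of this sum in EV and 64.7% to 69.4% in BCR-ABL1 lines, with EV line 2C at 65.1%. These ranges overlap through EV line 2C only, as the other EV lines reached at most 57.9%. The membrane transporters together had 422 to 483 CPM (EV) and 376 to 423 CPM (BCR-ABL1).

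Among the genes of ribosome recycling and release, 0 of 8 tested were called in either direction over all lines, beside 12.5% of all genes. Gcn1 and Znf598 of that list had no match by symbol. The antigen peptide transporters Tap1 and Tap2, ABC proteins outside the symbol rule, were not called either, with 0 of 2 beside the same share. Cftr did not pass the filter.

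The second comparison asks whether the effect of BCR-ABL1 differed between the 2 mice. The interaction of mouse and condition was tested by glmQLFTest, and 6 of 22 members were called beside 16.9% of all tested genes (10.8% with a lower and 6.1% with a higher signed effect in mouse 2). The signed effect in mouse 2 was lower for Abcc1, Abcg1, Abcg2 and Abcb10 and higher for Abcb8 and Abca3. For the first 4 the EV lines of mouse 1 were the low ones. With 3 lines against 3, BCR-ABL1 in mouse 1 was called past 1.5-fold for 7 of 22 tested members, with 28.5% of all genes called in that fit (16.3% higher and 12.2% lower). Higher were Abca5, Abcb10, Abcc1, Abcg1, Abcg2 and Abcg3, and lower was Abca7. Abca5 failed the main filter over all 12 lines and passed the filter here only through its BCR-ABL1 lines, so its call adds nothing to its counts. Abcc1 passed the main filter, but here it too passed only through its BCR-ABL1 lines, so the same holds for its call in mouse 1. Both are among the 7. In mouse 2, 0 of 22 members were called by the same edgeR test, where 6.64% of all genes were called, and EV lines of that mouse had the wide spread given above. Of the 21 members tested in both mice, 15 had the same sign in both, and the estimate was larger in size in mouse 1 for 15. The shares of all genes for these counts were not computed. The median size in mouse 1 and mouse 2 was 0.66 and 0.34 for members and 0.47 and 0.42 for all genes tested in each.

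**Figure D4:**
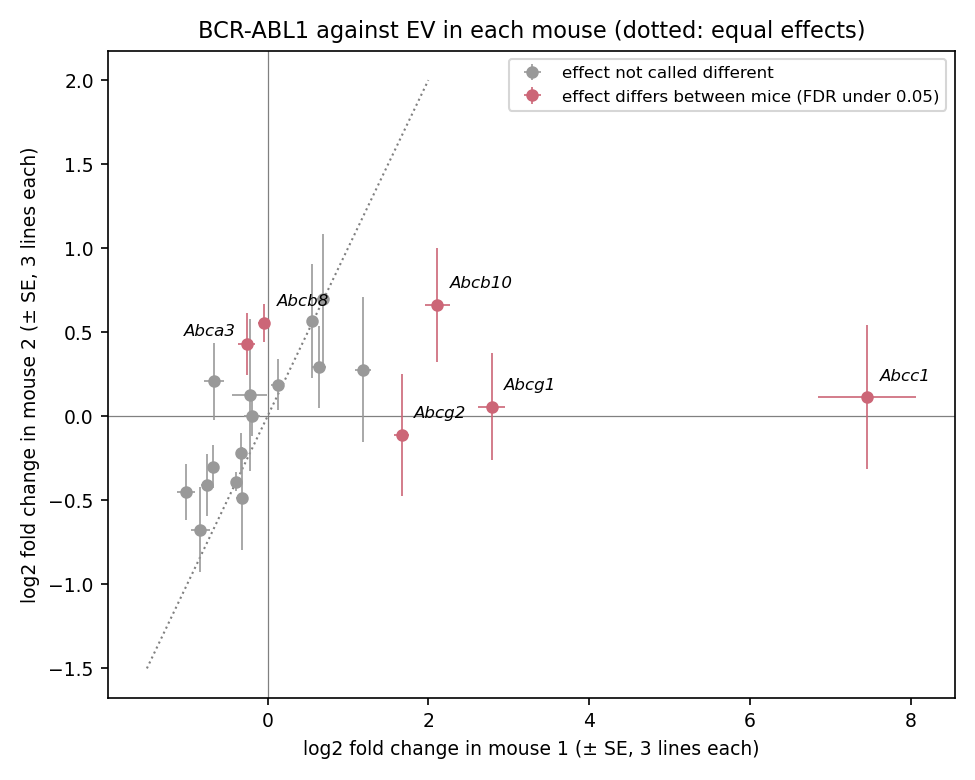
log2 fold change of BCR-ABL1 against EV in mouse 1 (horizontal) and mouse 2 (vertical) for 21 members, with bars of 1 SE from 3 lines per group and red points where the effects differ between the mice. Abcc1 (7.46 and 0.11), Abcg1, Abcg2 and Abcb10 lie far below the dotted line of equal effects, and Abca3 and Abcb8 lie above it.

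Abcc1 (chr16:14361558-14475737, plus strand), the exporter of glutathione conjugates and leukotrienes known as MRP1, differed most. In mouse 1 its counts were 3, 4 and 0 in EV lines and 647, 266 and 182 in BCR-ABL1 lines. In mouse 2 they were 266, 331 and 806 in EV and 368, 842 and 558 in BCR-ABL1 lines. Expression was thus near the limit of detection in the 3 EV lines of mouse 1 and present in the other 9 lines. On the scale of CPM, EV lines of mouse 1 had at most 0.0578 CPM, EV lines of mouse 2 had 8.16, 6.57 and 14.5 CPM, and BCR-ABL1 lines had 11.0, 5.56 and 4.14 CPM in mouse 1 and 7.09, 12.8 and 11.6 CPM in mouse 2. The ratio of summed counts at equal library size was 194 in mouse 1 (1095 against 7 counts, exact 95% interval 94.1 to 485, which covers counting error only). The fitted log2 fold change was 7.46 ± 0.61 in mouse 1 (FDR 2.67e-06) and 0.11 ± 0.43 in mouse 2 (FDR 1). In the fit of mouse 1 the gene passed the filter only through its BCR-ABL1 lines, so that FDR adds nothing to the counts. The difference between the mice, from the fit to all 12 lines, was -7.34 (FDR 0.000150). Its FDR was between 1.31e-18 and 0.000992 under all alternatives, each line left out included. Over all 12 lines the change was 0.83 ± 1.62 (FDR 1), and with mouse as replicate block it was 2.99 (FDR 0.251). Neither value describes the effect in either mouse. The estimate of 0.83 comes from the fit to counts without mouse, whereas its SE comes from log2 CPM of the lines, so the 2 are not on the same footing for this gene.

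Abcg1 (chr17:31057675-31117988, plus strand) exports cholesterol to lipoprotein particles. Its EV lines had 8.09, 5.50 and 6.22 CPM in mouse 1 and 46.1, 36.3 and 21.8 CPM in mouse 2. The BCR-ABL1 lines had 47.7, 45.6 and 41.8 CPM in mouse 1 and 36.7, 35.6 and 34.8 CPM in mouse 2. Only the EV lines of mouse 1 were low, and the BCR-ABL1 lines of mouse 2 lay within the range of its EV lines. The log2 fold change was 2.79 ± 0.17 in mouse 1 (FDR 4.56e-08) and 0.06 ± 0.32 in mouse 2 (FDR 1), with a difference of -2.73 (FDR 0.000196, between 5.99e-14 and 0.00120 under the alternatives). Over all lines it was 0.97 ± 0.55 (FDR 0.466), and with mouse as replicate block 1.39 (FDR 0.144).

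Abcg2 (chr6:58584523-58695676, plus strand), the pump of many drugs known as BCRP, had 5.80, 5.86 and 5.94 CPM in EV lines of mouse 1 and 24.0, 11.5 and 11.4 CPM in those of mouse 2. The BCR-ABL1 lines had 16.5, 20.5 and 18.7 CPM in mouse 1 and 15.9, 13.3 and 13.6 CPM in mouse 2. EV lines of mouse 1 were again the low ones, the arrangement given above for Vpreb1 and Igll1, whose part in the levels of Abcc1, Abcg1 and Abcg2 was not tested. EV line 2A was the highest of all 12. The log2 fold change was 1.67 ± 0.09 in mouse 1 (FDR 1.48e-06) and -0.11 ± 0.36 in mouse 2 (FDR 1). The difference was -1.79 (FDR 0.00502), and without EV line 2A it was -1.35 (FDR 0.000548). Over all lines the change was 0.61 ± 0.35 (FDR 0.745), and with mouse as replicate block 0.76 (FDR 0.465).

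Abcb10 (chr8:123952459-123983122, minus strand) is a transporter of the inner mitochondrial membrane with a known part in heme synthesis. It had 2.3, 2.09 and 2.66 CPM in EV lines of mouse 1, 6.41, 7.61 and 3.57 CPM in EV lines of mouse 2, 9.29, 11.9 and 9.18 CPM in BCR-ABL1 lines of mouse 1 and 8.09, 10.1 and 9.36 CPM in those of mouse 2. Every BCR-ABL1 line was above every EV line, and EV lines of mouse 2 lay between. The log2 fold change over all lines was 1.23 ± 0.33 with an FDR of 0.0701, which missed the threshold. With mouse as replicate block it was 1.37 with an FDR of 0.0228, so Abcb10 was then called higher, the only member of 22, where 14.7% of all genes were called. Without EV line 2A the FDR was 0.0393 (12.7% of all genes called) and without EV line 2B 0.0132 (12.2% called), so each of these lines decided the call, and over all alternatives it ran from 3.33e-06 to 0.684. The effect was larger in mouse 1 (2.11 ± 0.15) than in mouse 2 (0.66 ± 0.34), with a difference of -1.46 (FDR 0.0146, at most 0.0430 under the alternatives). In the list of heme synthesis genes 0 of 11 tested were called by the main test, beside 12.5% of all genes.

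**Figure D5:**
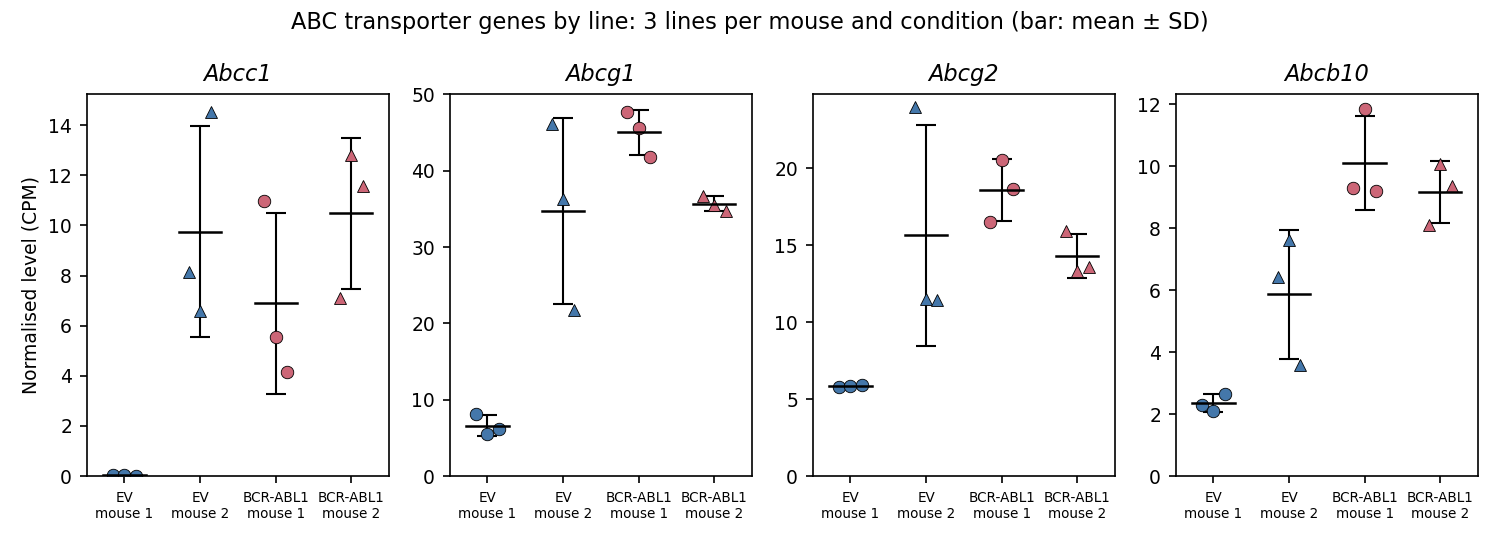
Normalised level (CPM) of Abcc1, Abcg1, Abcg2 and Abcb10 in each line, with 3 lines per mouse and condition and bars of mean ± SD. EV lines of mouse 1 are the lowest group for all 4 genes, and for Abcc1 they lie at 0 to 0.0578 CPM.

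Abcb8 and Abca3 differed between mice by less. Abcb8, a mitochondrial transporter, had 45.3 to 53.1 CPM (EV) and 45.7 to 48.4 CPM (BCR-ABL1) in mouse 1. In mouse 2 it had 34.8, 34.7 and 43.6 CPM in EV and 56.7, 54.0 and 54.0 CPM in BCR-ABL1 lines. The groups overlapped in mouse 1 and did not overlap in mouse 2. The difference of the effects was 0.59 (FDR 0.0129), and without EV line 1A it was 0.54 and no longer called (FDR 0.0524). Abca3, a phospholipid transporter best known from lung surfactant, spanned in mouse 1 30.7 to 38.1 CPM (EV) and 26.0 to 28.9 CPM (BCR-ABL1). In mouse 2 it spanned 16.1 to 24.3 CPM (EV) and 24.4 to 28.1 CPM (BCR-ABL1), so that BCR-ABL1 lines were the lower ones in mouse 1 and the higher ones in mouse 2. The difference was 0.69 (FDR 0.0377), and it was not called in 8 of the 12 fits that left out 1 line, namely each of EV lines 1A, 1B and 2A and of BCR-ABL1 lines 1A, 1B, 1C, 2B and 2C, with an FDR of up to 0.0932.

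The other multidrug and xenobiotic pumps were not called over all lines. Of 11 genes in this list 6 were tested and 0 were called, beside 12.5% of all genes, a share at which fewer than 1 of 6 would be called. Abcb1b, the P-glycoprotein gene expressed here, had 17.3, 17.8 and 17.6 CPM in EV lines of mouse 1 and 6.56, 3.36 and 9.88 CPM in those of mouse 2. Its BCR-ABL1 lines had 18.8, 11.1 and 15 CPM in mouse 1 and 7.43, 7.21 and 6.83 CPM in mouse 2. Levels followed the mouse, with both groups of mouse 2 below those of mouse 1, and the log2 fold change over all lines was -0.13 ± 0.47 (FDR 1). Abcb1a had at most 9 counts in any line, and with Abcb1a and Abcb1b summed the change was again -0.13 (FDR 1). Abcc4, an exporter of cyclic nucleotides and nucleotide analogs, also followed the mouse. It had 29.7, 29.9 and 25.4 CPM in EV and 45.9, 41.4 and 44.7 CPM in BCR-ABL1 lines of mouse 1. In mouse 2 it had 10.2, 11.2 and 16.8 CPM in EV and 13.6, 15.8 and 17.2 CPM in BCR-ABL1 lines, and the change over all lines was 0.53 ± 0.44 (FDR 0.921). Abcc5, another cyclic nucleotide exporter, was between 31.2 and 47.0 CPM in all lines with a change of -0.28 ± 0.08 (FDR 1). Abcc10, a pump of taxanes and other drugs, was lower in BCR-ABL1 lines without overlap, at 4.75 to 6.24 CPM against 6.82 to 10.4 CPM, with a change of -0.58 ± 0.12 (FDR 0.743).

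Levels also differed between the mice within each condition. EV lines of mouse 2 lay above all those of mouse 1 for 4 members (Abcb10, Abcc1, Abcg1 and Abcg2) and below them for 5 (Abca3, Abcb1b, Abcb8, Abcc4 and Abcd3), beside 32.8% of all tested genes (16.6% above and 16.1% below). BCR-ABL1 lines of mouse 2 were above those of mouse 1 for 6 members and below them for 6, beside 38.5% of all tested genes (19.8% above and 18.7% below).

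Of the sterol and phospholipid exporters 3 of 6 were tested. Abca7 (chr10:79996494-80015572, plus strand), a phospholipid exporter, had 141, 108 and 118 CPM in EV lines of mouse 1 and 97.1, 123 and 82.6 CPM in those of mouse 2. Its BCR-ABL1 lines had 58.8, 62.2 and 59.9 CPM in mouse 1 and 72.6, 73.6 and 73.5 CPM in mouse 2. All BCR-ABL1 lines were below all EV lines. The change was -0.74 ± 0.13 (FDR 0.179), and it was called without EV line 2C (-0.81, FDR 0.0353) and in mouse 1 (-1.01 ± 0.12, FDR 0.000275). In mouse 2 it was -0.45 ± 0.17 (FDR 1). Abcg4, a sterol exporter best known from brain, had only 18 to 32 counts in EV and 11 to 21 counts in BCR-ABL1 lines, and its levels of 0.358 to 0.644 and 0.220 to 0.327 CPM did not overlap (-0.75 ± 0.14, FDR 0.375). Abca1, the cholesterol exporter that partners with Abcg1 in many cells, had at most 14 counts in any line. In the list of the liver X receptor, which is known to switch on Abca1 and Abcg1, 3 of 12 tested genes were called higher and 1 lower, beside the 12.5% of all genes. The higher ones were Rxra (3.6 on the log2 scale, FDR 0.000208), the desaturase gene Scd2 (1.5, FDR 0.000450) and the phospholipid transfer protein gene Pltp (3.55, FDR 0.00882). The lower one was the receptor gene Nr1h3 (-1.42, FDR 0.0224), and Rxra, Pltp and Nr1h3 were all at or under 3.25 CPM in every line. By the interaction test 1 of the 12 differed between the mice, beside 16.9% of all genes, namely Scd1 (FDR 1.02e-05), which was not called over all lines (FDR 0.703).

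Among the remaining lipid transporters, Abca2, a transporter of endosomes and lysosomes, had 53.7 to 108 CPM (EV) and 48.3 to 58.1 CPM (BCR-ABL1; -0.42 ± 0.15, FDR 1). Abca5 had 1, 0 and 1 counts in EV lines and 13, 31 and 20 counts in BCR-ABL1 lines of mouse 1. Its call there (FDR 0.000309) adds nothing to these counts, because it passed the filter only through those BCR-ABL1 lines. Taking 3 counts per line as the floor, it was at least 9.07-fold higher. In mouse 2 Abca5 had 16, 4 and 0 counts in EV and 1, 5 and 4 counts in BCR-ABL1 lines. Abca8b had 0 to 16 counts in EV and 1 to 13 counts in BCR-ABL1 lines. Abcb4, the phosphatidylcholine exporter of bile, had 2 to 38 counts in EV and 3 to 99 counts in BCR-ABL1 lines, and its estimate of 1.5 ± 0.93 (FDR 0.525) is the largest of the tested members and among the least certain.

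Apart from Abcb10 and Abcb8, described above, 3 organelle members were tested and not called. Abcd3, which imports fatty acids into peroxisomes, had 44.2, 45.5 and 42.9 CPM in EV lines of mouse 1, 27.0, 26.7 and 35 CPM in EV lines of mouse 2 and 23.6 to 28.2 CPM in BCR-ABL1 lines (-0.53 ± 0.15, FDR 0.973), and against no change it was lower (FDR 0.00954). Abcd4, a lysosomal transporter of cobalamin, had 10.1 to 13.7 and 9.38 to 12.1 CPM (-0.11 ± 0.08, FDR 1). Abcb6, a transporter linked to porphyrins, had 1.66 to 2.72 and 1.31 to 2.72 CPM (-0.17 ± 0.22, FDR 1), with the uncertain count given above. Abcb9, the lysosomal peptide transporter, had 9 to 45 counts in EV and 2 to 10 counts in BCR-ABL1 lines, with means of 0.396 and 0.118 CPM and overlapping lines, and did not pass the filter. Of the peroxisome assembly and beta oxidation genes 1 of 13 tested was called, beside 12.5% of all genes, the catalase gene Cat (1.22, FDR 0.0159). By the interaction test its effect differed between the mice (FDR 0.0115).

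Abcg3, a rodent member with no human counterpart, had 6.19, 5.54 and 5.30 CPM in EV and 11.8, 13.0 and 13.8 CPM in BCR-ABL1 lines of mouse 1. In mouse 2 it had 3.34, 8.90 and 4.08 CPM in EV and 7.03, 6.55 and 6.04 CPM in BCR-ABL1 lines. The groups were apart in mouse 1 (1.19 ± 0.09, FDR 0.000106) and overlapped in mouse 2 (0.28 ± 0.43, FDR 1), but the difference between the mice was not called (-0.92, FDR 0.168). Over all lines the change was 0.80 ± 0.30 (FDR 0.369).

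Regulators of drug metabolism were read from lists of genes that are no members. Of the NRF2 and glutathione conjugation list, 3 of 14 tested genes were called higher and 0 lower, beside 12.5% of all genes in either direction, namely Mgst2 (3.71, FDR 0.0160), Txnrd1 (1.06, FDR 0.0277) and Nqo1 (1.40, FDR 0.0447, at most 0.426 CPM). With mouse as replicate block Nqo1 was no longer called (FDR 0.0504), which left 2 of 14. Of the xenobiotic sensors 1 of 4 tested was called, beside the same 12.5% of all genes, the aryl hydrocarbon receptor gene Ahr. It had at most 2.44 CPM (EV) and 16.2 to 25.2 CPM (BCR-ABL1; 4.02, FDR 0.000931). By the interaction test, which called 16.9% of all genes, the effect differed between the mice for Ahr (FDR 0.000594) and Mgst2 (FDR 0.00225).

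Promoters are shown for Abcb10 and Abca7, the members with an unadjusted p under 0.05. That of Abce1 is also shown, which was called past 1.5-fold once EV line 2C was left out. The windows hold the 250 bases before the start in RefSeq (GRCm38.p6), read on the strand of the gene, and capitals mark letters of the motifs searched. Both strands were searched for the GC box GGGCGG, the CCAAT box CCAAT, the E box CACGTG, the TATA box TATAAA and the antioxidant response core TGACNNNGC. Matches may overlap.
Abca7, chr10:79996244-79996493, plus strand: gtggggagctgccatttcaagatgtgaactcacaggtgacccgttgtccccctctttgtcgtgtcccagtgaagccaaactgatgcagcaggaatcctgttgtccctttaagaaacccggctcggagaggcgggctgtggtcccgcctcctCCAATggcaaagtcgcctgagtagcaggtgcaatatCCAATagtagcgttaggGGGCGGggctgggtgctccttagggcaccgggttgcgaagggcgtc
Abcb10, chr8:123983123-123983372, minus strand: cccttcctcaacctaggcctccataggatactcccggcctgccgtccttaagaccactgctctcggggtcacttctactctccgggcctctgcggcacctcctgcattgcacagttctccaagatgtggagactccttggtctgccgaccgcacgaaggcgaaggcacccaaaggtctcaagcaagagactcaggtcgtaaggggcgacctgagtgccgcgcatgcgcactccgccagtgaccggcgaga
Abce1, chr8:79711741-79711990, minus strand: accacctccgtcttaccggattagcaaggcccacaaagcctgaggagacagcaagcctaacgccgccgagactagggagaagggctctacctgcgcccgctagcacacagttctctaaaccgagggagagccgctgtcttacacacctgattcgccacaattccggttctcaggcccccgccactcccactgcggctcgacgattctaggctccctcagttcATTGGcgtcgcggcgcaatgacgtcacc
The Abca7 window held 2 CCAAT boxes and 1 GC box, that of Abce1 held 1 CCAAT box on the other strand, and that of Abcb10 held none of the motifs. Windows were found for 17 of the 22 tested members, and Abcb8, Abcc1, Abcd4, Abcg1 and Abcg4 had no match. Among the 17, a GC box occurred in 11 where 32.7% of 32851 windows of the same length held one, a CCAAT box in 5 (33.8%), an E box in 2 (6.02%), a TATA box in 1 (12.4%) and the antioxidant core in 2 (10.2%). The median GC content was 61.6% in the 17 windows and 52.4% in all, and GC boxes are themselves made of G and C.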

How the data were processed

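Total RNA of 12 lines (6 EV, 6 BCR-ABL1, 3 per mouse and condition) was sequenced from stranded libraries. The authors deposited whole-number counts per Ensembl gene, not normalized or pooled. The submitters' processing notes list FastQC 0.11.5, Trimmomatic 0.36, TopHat2 2.1.1, Bowtie2 2.3.2, featureCounts 1.5.3, R 3.6.1, edgeR 3.18.1 and GRCm38, without roles or settings.

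Symbols (51633 of 51826 genes), positions and exon lengths came from GENCODE M21. Genes were filtered with filterByExpr, scaled by TMM and tested in edgeR 4.0.16 (R 4.3.3; limma 3.58.1) with glmTreat against 1.5-fold on the quasi-likelihood fit. P-values were adjusted by Benjamini-Hochberg over every tested gene (FDR under 0.05), and DESeq2 1.42.0 served as an alternative. Mouse by condition interactions used glmQLFTest. CPM are TMM-scaled, SEs come from log2 CPM (prior count 2), and 3 counts were the floor. Intervals and floors cover counting error only. Sequences were handled in Python 3.11.15 with biopython 1.88, exact intervals with scipy 1.17.1 and plots with matplotlib 3.10.9.

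The members and gene lists were chosen with earlier results of these data known. Named were all members with 10 or more counts in 3 lines, the others with their highest count, and genes of other lists where called. Pax5, Ebf1, Vpreb1, Igll1, Scd1, Tap1, Tap2 and Cftr were named outside this rule. Values by line were given for members called or differing between mice and for Abcb1b, Abcc1, Abcg2, Abcg1 and Abce1, and the further members described by line were added after their values were seen.

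Equal first digits in the labels were read as the same mouse, which the labels do not name. Deviations from condition means correlated at 0.0853 to 0.240 between EV and BCR-ABL1 lines of equal digit and at -0.203 to -0.0636 across digits. Lines of equal digit thus go together, which does not show what the digit stands for. For equal letters within a mouse the correlation was -0.109 to 0.0856. Replicate lines differed beyond sampling noise (chi-square per gene 9.96 to 481). Lines of one mouse share their marrow, so p-values measure the spread between lines, not between many mice. On simulated counts glmTreat recovered 200 of 200 changed genes with 0 false calls among 14897 tested, and the interaction test recovered 180 of 200 with 9 false calls among 14932. The changes put into these counts were all far larger than 1.5-fold. Recovery of changes as small as those of most members over all lines was therefore not measured. How recovery depends on the size of a change or on differences between the mice was not tested. Alternatives covered scaling, filters, tests, blocks, each mouse alone, summed Abcb1a and Abcb1b and each line left out.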

Additional observations from a re-analysis of the deposited data

Results flagged for a closer look

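In 6 members the effect of BCR-ABL1 differed between the 2 mice by the interaction test of edgeR (FDR under 0.05). The log2 difference, mouse 2 minus mouse 1, was -7.34 for Abcc1 (FDR 0.000150), -2.73 for Abcg1 (FDR 0.000196), -1.79 for Abcg2 (FDR 0.00502), -1.46 for Abcb10 (FDR 0.0146), 0.59 for Abcb8 (FDR 0.0129) and 0.69 for Abca3 (FDR 0.0377). Abcb8 lost its call without EV line 1A and Abca3 in 8 of 12 omissions of a line.

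Single lines stood apart from the other 5 of their condition by Dixon's test in 4 of the 50 groups checked, where chance alone flags about 1 in 20. Abca2 had 108 CPM in EV line 2C, against at most 69.4 CPM in the other EV lines. Abca5 had 0.491 CPM in EV line 2A. Abce1 had 429.6 CPM in BCR-ABL1 line 2A, and Abcg2 had 24.0 CPM in EV line 2A. Of these, 3 are EV lines of mouse 2, the group with the widest spread.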

How the results depend on the processing

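Of 525 values of single members under the alternatives, 490 kept their direction and side of the threshold, 23 newly passed it and 12 changed sign, none of these called. For the interaction, 75 of 84 values kept their call and 9 lost it. The counts of higher and lower genes were 3389 and 3897 against no change (members 4 and 7), 2512 and 1877 in mouse 1 alone (members 6 and 1), and 614 and 408 in mouse 2 alone (members 0 and 0). Abca5 and Abcc1, among the members higher in mouse 1 alone, passed that filter only through BCR-ABL1 lines. Without a gene filter 1 member was higher (Abcb10, FDR 0.0483) and 1 lower (Abcc8, FDR 0.00193). With mouse as replicate block 1 member was higher (Abcb10), and the block changed no other member's call. Omitting each line gave 807 to 1353 genes higher and 802 to 1434 lower (members 0 to 1 each), with the upper ends without EV line 2C, and for the interaction 613 to 2381 higher and 1262 to 3141 lower (members 0 to 5 and 4 to 5), again highest without EV line 2C. Without that line Abcb6, Abcd3, Abcg3 and Abca7 were also called by the interaction test. It then called 10 of 22 members, beside 36.0% of all genes.

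Signs changed for Abca3 (-0.26 in mouse 1, and -0.057, -0.014 and -0.085 without EV lines 2A, 2B and 2C, in a range of -0.085 to 0.18 over omissions), Abcb1b (0.13 in mouse 2, and 0.022, 0.012 and 0.0079 without EV lines 1A, 1B and 1C, in a range of -0.35 to 0.022), Abcb6 (0.21 in mouse 2), Abcb8 (-0.043 in mouse 1), Abcd4 (0.0043 in mouse 2) and Abcg2 (-0.11 in mouse 2). The cause was not tested. Abcg4 and Abcb4 had few counts per line, at most 32 and 99.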
